A study of Mus musculus with 24 samples.

Results

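The integrated stress and unfolded protein response was examined as a module of 38 genes in cultured mouse neural cells grown at low or at room-air oxygen. The members are textbook genes of both pathways, listed by gene symbol. Members and the gene lists used below were chosen with earlier results of these data known. Their shares beside those of all probe sets may therefore depend on that choice. All 38 were measured, out of 19938 genes with a probe set of their own, each by its probe set with the highest mean over 24 arrays. They were divided into 9 enzymes of amino acid and one-carbon metabolism and 15 regulators and effectors, which together form the ATF4 arm, and 14 members of the endoplasmic reticulum (ER) chaperone arm. The RNA was that of primary neural stem cells taken from cortex or midbrain of C57Bl/6 mice at embryonic day 14 and kept in expansion medium for 48 h or 13 d, at 3% O2 or at 21% O2. Region, time and oxygen gave 8 groups of 3 whole-transcript arrays. The groups were midbrain 48 h at 3% O2, midbrain 48 h at 21% O2, midbrain 13 d at 3% O2 and midbrain 13 d at 21% O2, and the same 4 combinations of cortex. The labels name no sort, and the culture vessel gave RNA of all its cells. The cells are labelled neural stem cells, and 10 progenitor markers had a list mean from 10.13 to 11.56 (log2) over the 4 cultures at 21% O2, beside the neuron markers given below.

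When eIF2 is phosphorylated by a stress kinase, most translation slows while the mRNA of the transcription factor ATF4 is translated more. ATF4 with its C/EBP partners then drives genes that make and import amino acids and charge tRNAs, beside regulators such as CHOP, the product of Ddit3. Unfolded protein in the ER acts through the sensors PERK, IRE1 and ATF6. PERK leads to ATF4, whereas ATF6 and the spliced form of XBP1 drive chaperones, disulfide isomerases and genes that remove misfolded proteins. Kinases other than PERK can phosphorylate eIF2, so the ATF4 arm can be engaged with or without the chaperone arm. In the developing brain the serine pathway enzymes and ER chaperones are also expressed without stress.

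The 250 bases before the annotated gene starts were searched on both strands. The DNA elements sought were those named after these arms, each a sequence known for its arm. RefSeq windows of build GRCm38.p6 were given for 34 of the 38 members, all but Eif4ebp1, Aldh1l2, Hyou1 and Manf, and some genes had more than 1 window. The C/EBP-ATF response element was searched as TGATGNAAN and the ER stress response element as CCAAT, 9 bases of any kind and CCACG. The first was found in 2 of 8 enzymes, 4 of 14 regulators and effectors and 1 of 12 members of the chaperone arm, and in 3.44% of all 32851 windows of the same length. The second was found in 6 of 12 members of the chaperone arm, in 0 of the 22 members of the ATF4 arm, and in 0.113% of all windows. The matches of the C/EBP-ATF element follow, written in the orientation of the element with its fixed letters in capitals:
Atf3: TGATGcAAg
Chac1: TGATGcAAc
Asns: TGATGaAAc
Nupr1: TGATGcAAt
Herpud1: TGATGcAAc
Pck2: TGATGtAAc
Vldlr: TGATGcAAc

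The matches of the ER stress element are shown in the same way. Its fixed ends are in capitals and the 9 free bases between them in lower case:
Hspa5: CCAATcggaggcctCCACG
Calr: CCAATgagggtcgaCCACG
Hsp90b1: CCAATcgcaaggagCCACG
Hsp90b1, other copy: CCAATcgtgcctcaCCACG
Pdia6: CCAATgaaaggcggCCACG
Dnajc3: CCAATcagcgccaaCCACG
Creld2: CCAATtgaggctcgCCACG

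No match of 1 element overlapped a match of the other (0 overlaps). The core of the unfolded protein response element, TGACGTGG, was in 0 of the 34 members and in 0.563% of all windows. Taken apart, CCAAT was in 33.8% and CCACG in 28.3% of all windows. The whole windows of 4 genes follow, chosen because the contrast between the arms turns on them, 5′ to 3′ in the direction of transcription. Capitals mark the 8-base core of the C/EBP-ATF match or the whole of the ER stress match with its free bases. They are Asns (chr6:7693210-7693459, minus strand), Chac1 (chr2:119350992-119351241, plus strand), Hspa5 (chr2:34771840-34772089, plus strand) and Herpud1 (chr8:94386179-94386428, plus strand), the only member of the chaperone arm with the C/EBP-ATF element:
Asns: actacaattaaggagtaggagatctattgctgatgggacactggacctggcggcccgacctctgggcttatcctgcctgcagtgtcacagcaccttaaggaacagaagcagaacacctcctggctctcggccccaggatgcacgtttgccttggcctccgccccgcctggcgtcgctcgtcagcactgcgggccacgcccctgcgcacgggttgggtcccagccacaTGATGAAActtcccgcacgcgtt
Chac1: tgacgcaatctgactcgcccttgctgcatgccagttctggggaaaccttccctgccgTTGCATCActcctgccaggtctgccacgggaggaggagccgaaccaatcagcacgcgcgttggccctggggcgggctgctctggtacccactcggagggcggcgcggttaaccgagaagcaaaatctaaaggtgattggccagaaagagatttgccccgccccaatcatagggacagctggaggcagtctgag
Hspa5: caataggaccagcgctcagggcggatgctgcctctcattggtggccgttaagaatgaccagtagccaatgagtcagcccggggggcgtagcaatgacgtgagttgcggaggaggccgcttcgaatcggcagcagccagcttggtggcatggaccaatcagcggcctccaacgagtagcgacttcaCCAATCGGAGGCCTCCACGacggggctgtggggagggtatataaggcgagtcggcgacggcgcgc
Herpud1: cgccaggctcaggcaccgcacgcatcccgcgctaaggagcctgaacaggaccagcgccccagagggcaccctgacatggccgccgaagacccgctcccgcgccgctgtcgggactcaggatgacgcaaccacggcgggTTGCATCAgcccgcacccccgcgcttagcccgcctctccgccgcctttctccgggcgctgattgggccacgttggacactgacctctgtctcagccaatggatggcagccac

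In Chac1 and Herpud1 the element lies on the opposite strand and reads TTGCATCA here. A match describes letters, not a bound site, and these elements were first described in promoters of such genes. Of the 7 members with the C/EBP-ATF element, 7 rose at 3% O2 in at least 1 of the 4 cultures, as did 14 of the 27 without it. Of the 6 members with the ER stress element, 2 rose in at least 1 culture, and of the 28 without it 19. Among all probe sets 14.4% rose in at least 1 culture. The first element lies mostly in the ATF4 arm and the second wholly in the chaperone arm. These counts are therefore not separate from the division into arms, and they were not tested. By list, 2 of 2 enzymes with the C/EBP-ATF element rose in at least 1 culture and 2 of 6 without it. Of the regulators and effectors 4 of 4 with it and 8 of 10 without it rose, and of the chaperone arm 1 of 1 and 4 of 11. Within the chaperone arm 2 of 6 with the ER stress element as searched and 3 of 6 without it rose in at least 1 culture. Only 1 spacing of CCAAT and CCACG was searched, so members counted as without the element may hold it in another form. Herpud1 is counted as without it, although its window holds both CCAAT and CCACG, read over both strands.

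All values are on the log2 scale. The median of an array was 7.35 at the lowest and 7.42 at the highest, and replicate arrays correlated at a Pearson r from 0.986 to 0.999. Precision is limited by having 3 arrays in a group. Nothing in the labels tells whether these 3 were different cultures or animals, so a p-value here covers the spread between arrays alone, which may be technical. The words rose and fell are kept for a limma adjusted p under 0.05 over all probe sets tested. A change is the log2 difference 3% minus 21% O2, given with its standard error (SE). The cortex arrays labelled 13 d had neuron genes near the level of midbrain 48 h, at a list mean of 11.27 ± 0.04 (log2, SD, n = 3) against 11.85 ± 0.04, and those labelled 48 h lay lower, at 9.36 ± 0.11, nearer midbrain 13 d at 8.50 ± 0.07, all at 21% O2. By these genes the cortex labels run opposite to those of midbrain, and whether they are exchanged cannot be told from these data. Cortex times are therefore given as labelled. Were the labels exchanged, every cortex 13 d minus 48 h difference would turn its sign, and cortex labelled 48 h would match midbrain 13 d in time. Midbrain 13 d made up array run 1 (6 arrays) and everything else run 2 (18 arrays). Each oxygen comparison therefore lies inside a single run, while a level in midbrain 13 d set against another culture cannot be told apart from the run. As a check of low oxygen, 9, 11, 5 and 10 of 12 textbook targets of the hypoxia factor HIF rose in midbrain 48 h, midbrain 13 d, cortex labelled 48 h and cortex labelled 13 d. Their list mean at 21% O2 was 8.40 ± 0.07, 10.45 ± 0.14, 10.49 ± 0.39 and 8.84 ± 0.04 in this order. At 3% O2 it was 9.54 ± 0.43, 11.57 ± 0.12, 11.11 ± 0.20 and 10.78 ± 0.08. The HIF targets thus did not start from an equal level at 21% O2, and the part of this in the responses was not tested.

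Members of the ATF4 arm rose mainly in midbrain 13 d and cortex labelled 48 h, and fewer members of the ER chaperone arm did, 4 and 2 of 14. The count of 4 in midbrain 13 d depended on 1 array. Without its 3% O2 replicate 2 it was 9 of 14, beside 17 of 24 members called in the ATF4 arm. In that fit 2656 of 23410 probe sets were higher. The counts that follow are those of all arrays. In midbrain 13 d, 4 of 9 enzymes rose and 2 fell, 12 of 15 regulators and effectors rose and 0 fell, and 4 of 14 chaperone arm members rose and 1 fell. Over all probe sets 11.2% were higher and 12.7% lower there. In cortex labelled 48 h, 5 of 9 enzymes, 10 of 15 regulators and effectors and 2 of 14 chaperone arm members rose and 0 members fell, against 6.25% higher and 6.08% lower among all probe sets. In cortex labelled 13 d, 1 enzyme and 3 regulators and effectors rose and 0 members fell (0.543% and 0.0641% of all probe sets). In midbrain 48 h, limma called 0 of 38 members in either direction, where 0.701% of all probe sets were higher and 0.491% lower. At an unadjusted p under 0.05, 6 members were higher and 5 lower in midbrain 48 h. The share of all probe sets at an unadjusted p was not counted. Such counts, here and below, are therefore not read as particular to any list. In a fit of its 6 arrays alone, the 17 calls of cortex labelled 48 h became 7. Over all 23410 probe sets, 161 were higher and 150 lower in that fit, against 1462 and 1424 in the fit of all arrays. The share of members called higher was above the share of all probe sets in the first 3 of these cultures. It was above that share for the chaperone arm too, with 28.6% (midbrain 13 d) and 14.3% (cortex labelled 48 h), beside 66.7% and 62.5% for the ATF4 arm.

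**Figure D1:**
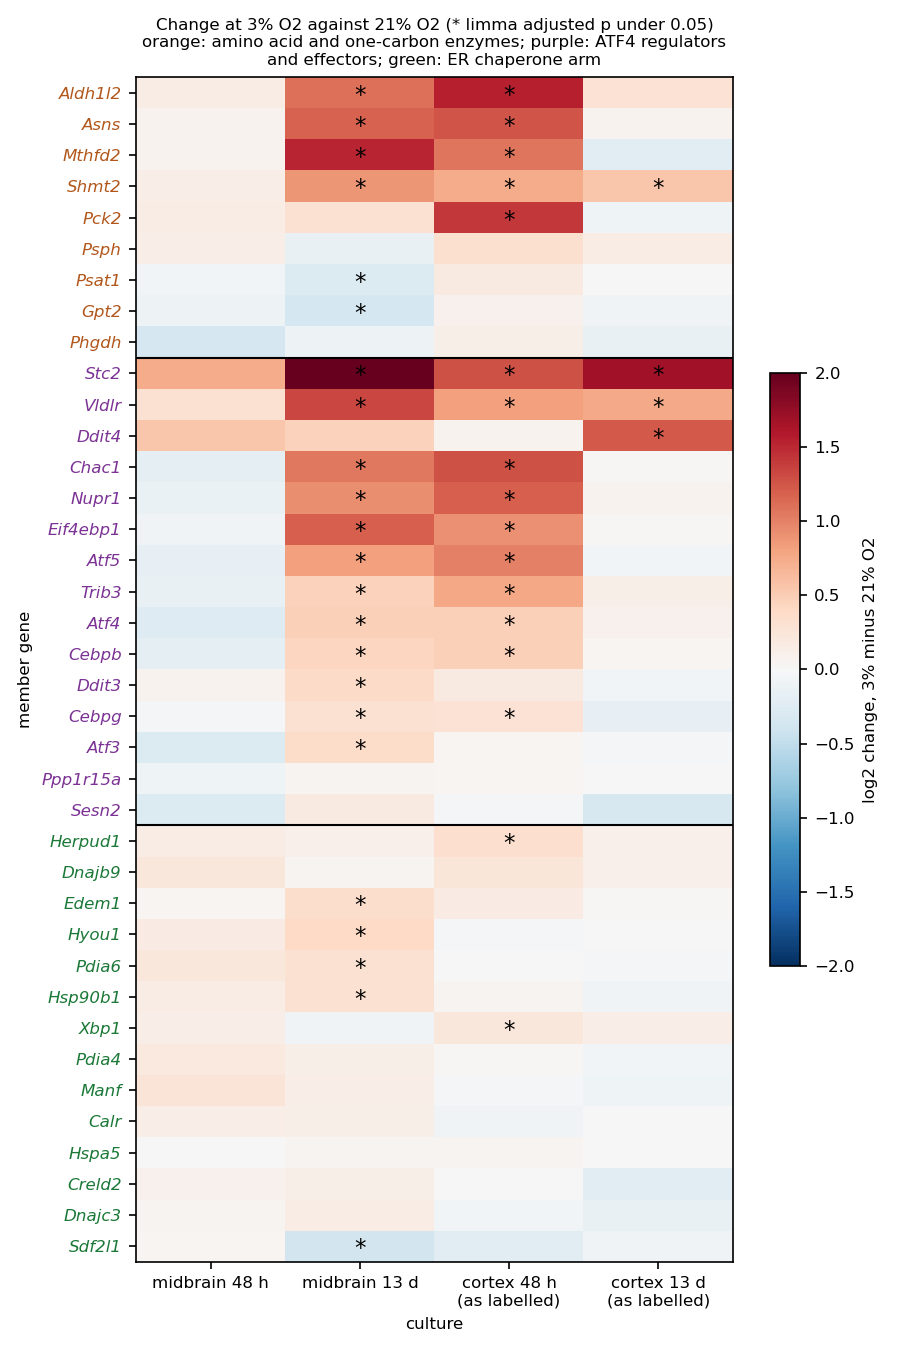
Log2 change (colour, 3% minus 21% O2) of the 38 members (rows, in 3 lists set apart by lines) in the 4 cultures (columns, 3 arrays per group); an asterisk marks limma's adjusted p under 0.05. Red rows of the enzymes and regulators stand in midbrain 13 d and cortex labelled 48 h, Stc2 reaches 2.00 in midbrain 13 d, and the 14 rows of the ER chaperone arm stay between -0.37 and 0.40.

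In all, 14 members rose in both midbrain 13 d and cortex labelled 48 h, of which 4 were enzymes, 10 were regulators or effectors and 0 belonged to the chaperone arm, against 3.66% of all probe sets that rose in both. These comparisons share no arrays but share 1 error estimate. None of the 4 cultures gave a call for 11 members, 2 enzymes, 2 regulators or effectors and 7 of the chaperone arm, while 70.4% of all probe sets had none. There were 0 members higher in all 4 cultures (0.0598% of all probe sets) and 0 members that rose in 1 culture and fell in another (0.449%).

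The list means by array give the same lists on the level scale. The enzymes had a mean of 10.19 ± 0.10 (log2, SD, n = 3) at 21% O2 and 10.65 ± 0.26 at 3% O2 in midbrain 13 d, and of 10.17 ± 0.09 and 10.91 ± 0.19 in cortex labelled 48 h. The 3% O2 arrays lay above all 21% O2 arrays in both. Enzyme means in midbrain 48 h were 9.53 ± 0.09 and 9.56 ± 0.07, and in cortex labelled 13 d they were 9.95 ± 0.10 and 10.01 ± 0.06, with overlapping arrays. The regulators and effectors went from 8.44 ± 0.03 to 9.14 ± 0.12 in midbrain 13 d and from 8.72 ± 0.06 to 9.31 ± 0.17 in cortex labelled 48 h. Their arrays were also apart in cortex labelled 13 d, at 8.42, 8.45 and 8.42 against 8.62, 8.68 and 8.67, and overlapped in midbrain 48 h. The chaperone arm was apart in midbrain 48 h alone and only just, at 10.42, 10.26 and 10.29 at 21% O2 against 10.47, 10.42 and 10.47 at 3% O2. It stayed between 10.32 ± 0.09 and 10.55 ± 0.15 over all 8 groups. The median change of the enzymes was 0.07, 0.30, 0.75 and -0.01 in midbrain 48 h, midbrain 13 d, cortex labelled 48 h and cortex labelled 13 d. That of the regulators and effectors was -0.14, 0.47, 0.48 and 0.02, and that of the chaperone arm 0.14, 0.12, 0.02 and -0.02. Over all probe sets the medians were -0.02, -0.01, 0.00 and -0.01 in the same order.

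**Figure D2:**
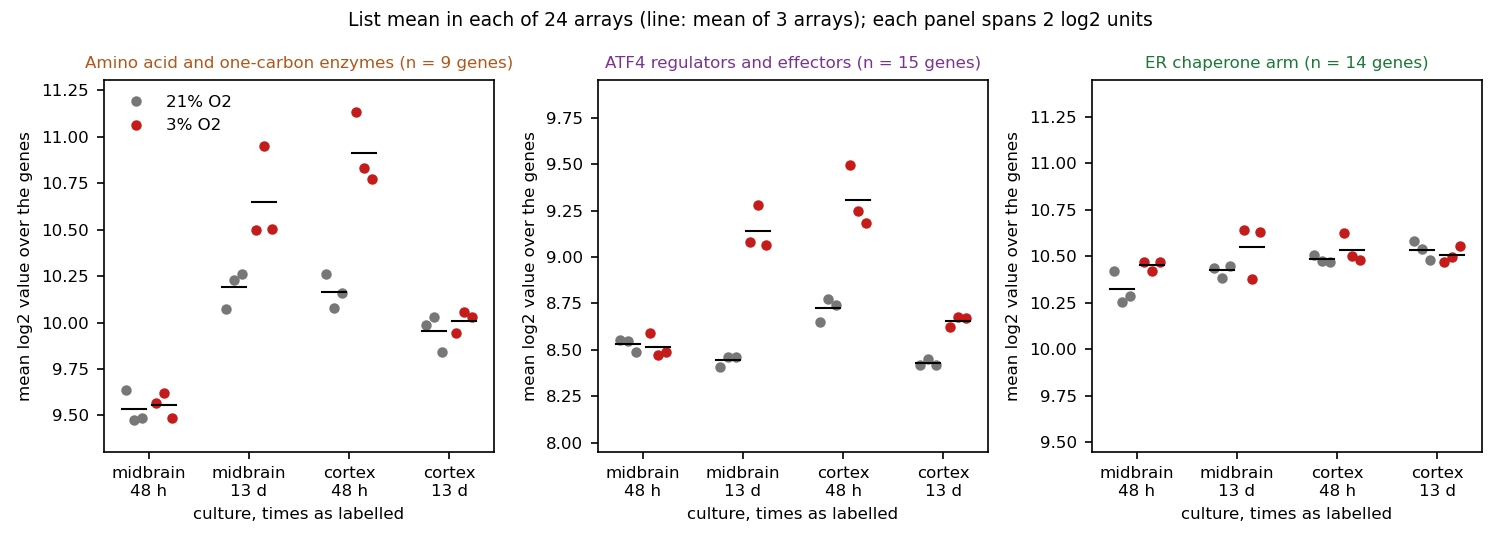
Mean log2 value over the genes of each list (vertical axis, each panel spanning the same range) in every array (points, grey at 21% O2 and red at 3% O2) and its mean over 3 arrays (lines), by culture. Red points stand clear of grey in midbrain 13 d and cortex labelled 48 h for the enzymes and the regulators, and in cortex labelled 13 d for the regulators. The chaperone arm lies between 10.26 and 10.64 in all 24 arrays and is apart, narrowly, in midbrain 48 h alone.

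Among the enzymes, Asns, which makes asparagine and is a standard ATF4 target, is shown in full. Its midbrain 13 d values were 10.12, 10.58 and 10.55 at 21% O2 and 11.34, 12.10 and 11.35 at 3% O2. Its values in cortex labelled 48 h were 11.22, 10.71 and 10.87 against 12.44, 12.09 and 12.04. All 3% O2 arrays were above all 21% O2 arrays in both cultures. Asns rose by 1.18 ± 0.17 (SE), 2.26-fold, in midbrain 13 d (limma adjusted p = 2.43e-05) and by 1.25 ± 0.17, 2.38-fold, in cortex labelled 48 h (limma adjusted p = 4.85e-05). Midbrain 48 h arrays overlapped, at 11.46, 11.42 and 11.34 against 11.50, 11.54 and 11.40, with a change of 0.07 ± 0.17. The arrays of cortex labelled 13 d were at 11.29, 11.31 and 11.24 against 11.30, 11.41 and 11.34, a change of 0.07 ± 0.17 with a 95% interval of -0.27 to 0.42.

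The mitochondrial one-carbon enzymes rose beside it. Shmt2, which splits serine into glycine and a one-carbon unit in mitochondria, went from 10.25, 10.48 and 10.50 to 11.26, 11.35 and 11.29 in midbrain 13 d. It went from 11.04, 10.81 and 10.92 to 11.79, 11.65 and 11.58 in cortex labelled 48 h, and from 10.56, 10.72 and 10.48 to 11.13, 11.16 and 11.14 in cortex labelled 13 d. The arrays did not overlap in these 3 cultures. Shmt2 rose by 0.89 ± 0.08, 0.75 ± 0.08 and 0.55 ± 0.08 in them, the only enzyme that rose in cortex labelled 13 d (limma adjusted p = 0.000916). Its 21% O2 arrays in midbrain 48 h were at 10.00, 9.75 and 9.84 and its 3% O2 arrays at 10.11, 9.96 and 9.93, which overlapped, with a change of 0.13 ± 0.08.

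Mthfd2, the next enzyme of that mitochondrial pathway, had the largest change among the enzymes in midbrain 13 d. It went from 7.77, 8.00 and 8.28 to 9.24, 9.96 and 9.43, a rise of 1.53 ± 0.20, or 2.89-fold (limma adjusted p = 1.4e-05). In cortex labelled 48 h it went from 9.87, 8.88 and 9.26 to 10.75, 10.15 and 10.31, a rise of 1.06 ± 0.20. The 21% O2 arrays were uneven there, spanning about as much as the change itself. Its midbrain 48 h values were 9.79, 9.83 and 9.84 against 9.76, 10.07 and 9.84. Every 3% O2 array of cortex labelled 13 d was below every 21% O2 array, at 9.96, 10.05 and 10.06 against 10.27, 10.34 and 10.14, without passing the test (-0.23 ± 0.20).

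Aldh1l2, which oxidises mitochondrial formyl-folate, went from 9.00, 9.48 and 9.43 to 10.15, 10.90 and 10.18 in midbrain 13 d and from 8.96, 9.11 and 9.09 to 10.98, 10.54 and 10.28 in cortex labelled 48 h. It rose by 1.11 ± 0.17 and 1.55 ± 0.17, the second being 2.92-fold and the largest change of an enzyme in cortex. In cortex labelled 13 d it was at 9.38, 9.21 and 9.08 against 9.47, 9.54 and 9.54 and did not pass (0.29 ± 0.17), and in midbrain 48 h at 9.53, 9.73 and 9.73 against 9.73, 9.85 and 9.85 (0.15 ± 0.17). Pck2, the mitochondrial PEP carboxykinase, rose in cortex labelled 48 h by 1.42 ± 0.19 (limma adjusted p = 5.26e-05) and did not pass in midbrain 13 d (0.30 ± 0.19, adjusted p = 0.316).

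Of the 3 enzymes that make serine from glucose, 0 rose and 1 fell in a culture. Phgdh, the entry enzyme of that pathway, passed in none of the 4 cultures. It was at 10.77, 10.64 and 10.56 at 21% O2 against 10.46, 10.79 and 10.43 at 3% O2 in midbrain 13 d (-0.10 ± 0.11), and at 10.41, 10.32 and 10.38 against 10.59, 10.47 and 10.40 in cortex labelled 48 h (0.11 ± 0.11). The arrays overlapped in both. Its 3% O2 arrays in midbrain 48 h lay below the others, at 8.65, 8.70 and 8.45 against 9.18, 8.77 and 8.84, with a change of -0.33 ± 0.11 and a limma adjusted p of 0.161. Its values in cortex labelled 13 d were 10.11, 10.13 and 9.81 against 9.76, 9.90 and 9.93 (-0.15 ± 0.11).

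Psat1, the aminotransferase of the same pathway, fell by 0.27 (SE 0.09) in midbrain 13 d, from 12.00, 12.08 and 12.11 to 11.70, 11.97 and 11.71. It no longer passed on leaving out 3% O2 replicate 1, 3% O2 replicate 3, 21% O2 replicate 2 or 21% O2 replicate 3, at -0.22, -0.23, -0.26 and -0.25. The 3% O2 arrays in cortex labelled 48 h were higher, at 12.23, 12.05 and 12.00 against 11.97, 11.88 and 11.90, without passing (0.17 ± 0.09). Its midbrain 48 h values were 10.94, 10.61 and 10.63 against 10.71, 10.77 and 10.56, and those in cortex labelled 13 d were 11.54, 11.64 and 11.46 against 11.48, 11.59 and 11.54, overlapping in both.

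Psph, the phosphatase that ends the pathway, passed in no culture and came closest in cortex labelled 48 h, at 9.18, 9.48 and 9.41 against 9.81, 9.73 and 9.52 (0.32 ± 0.11, limma adjusted p = 0.0533). Every 3% O2 array was above every 21% O2 array there, and it passed with quantile normalization, with median centring, among the brighter probe sets, and without 3% O2 replicate 3 or 21% O2 replicate 2. Its changes were 0.14 in midbrain 48 h (8.24, 7.87 and 7.90 against 8.15, 8.15 and 8.13), -0.15 in midbrain 13 d (9.83, 9.68 and 9.89 against 9.62, 9.83 and 9.50) and 0.15 in cortex labelled 13 d (8.75, 8.84 and 8.62 against 8.78, 8.99 and 8.89). Gpt2, the mitochondrial alanine aminotransferase, fell in midbrain 13 d by 0.35 (SE 0.07; limma adjusted p = 0.0013), with arrays at 11.64, 11.56 and 11.55 against 11.19, 11.35 and 11.16. Its midbrain 48 h values were 9.30, 9.12 and 9.03 against 9.13, 9.11 and 8.92, those in cortex labelled 48 h 10.80, 10.82 and 10.89 against 10.93, 10.93 and 10.89, and those in cortex labelled 13 d 9.77, 9.68 and 9.52 against 9.55, 9.56 and 9.65. None of these 3 passed.

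Among the regulators, the mRNA of Atf4 itself changed modestly. In midbrain 13 d it went from 8.20, 8.20 and 8.05 to 8.51, 8.82 and 8.54 and in cortex labelled 48 h from 8.74, 8.57 and 8.67 to 9.33, 9.02 and 9.07, with no overlap. It rose by 0.47 ± 0.08 and 0.48 ± 0.08, 1.39-fold in both. The 3% O2 arrays were the lower ones in midbrain 48 h, at 8.78, 8.90 and 8.99 against 9.17, 9.14 and 9.14, without passing (-0.26 ± 0.08, limma adjusted p = 0.139). They overlapped in cortex labelled 13 d, at 8.86, 8.88 and 8.79 against 8.87, 8.92 and 8.99 (0.09 ± 0.08). ATF4 is set mainly by translation, which arrays do not measure.

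Chac1, which degrades glutathione and is a sensitive ATF4 target, changed more. It was at 7.66, 7.47 and 7.57 at 21% O2 and at 8.41, 9.20 and 8.27 at 3% O2 in midbrain 13 d, a rise of 1.06 ± 0.16. In cortex labelled 48 h it went from 8.42, 8.36 and 8.38 to 9.97, 9.49 and 9.54, a rise of 1.28 ± 0.16, or 2.43-fold. In both cultures 1 of the 3% O2 arrays stood above the other 2, and all lay above the 21% O2 arrays. Its midbrain 48 h values were 9.20, 9.28 and 9.25 against 9.00, 9.09 and 9.10 (-0.18 ± 0.16), and those in cortex labelled 13 d were 8.54, 8.56 and 8.55 against 8.49, 8.68 and 8.55 (0.02 ± 0.16).

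Eif4ebp1, which restrains cap-dependent translation, had the smallest p of the list in midbrain 13 d and cortex labelled 48 h. It went from 9.38, 9.32 and 9.54 to 10.50, 10.81 and 10.52 in midbrain 13 d (1.19 ± 0.09, limma adjusted p = 1.6e-08) and from 10.33, 9.95 and 10.14 to 11.14, 10.97 and 11.03 in cortex labelled 48 h (0.91 ± 0.09, limma adjusted p = 2.32e-06). In the other 2 cultures its arrays overlapped, at 9.21, 9.10 and 9.09 against 9.16, 8.98 and 9.03 in midbrain 48 h and at 9.83, 9.97 and 9.97 against 9.94, 9.93 and 9.95 in cortex labelled 13 d. Its changes there were -0.08 and 0.02, with 95% intervals of -0.27 to 0.11 and -0.17 to 0.21.

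**Figure D3:**
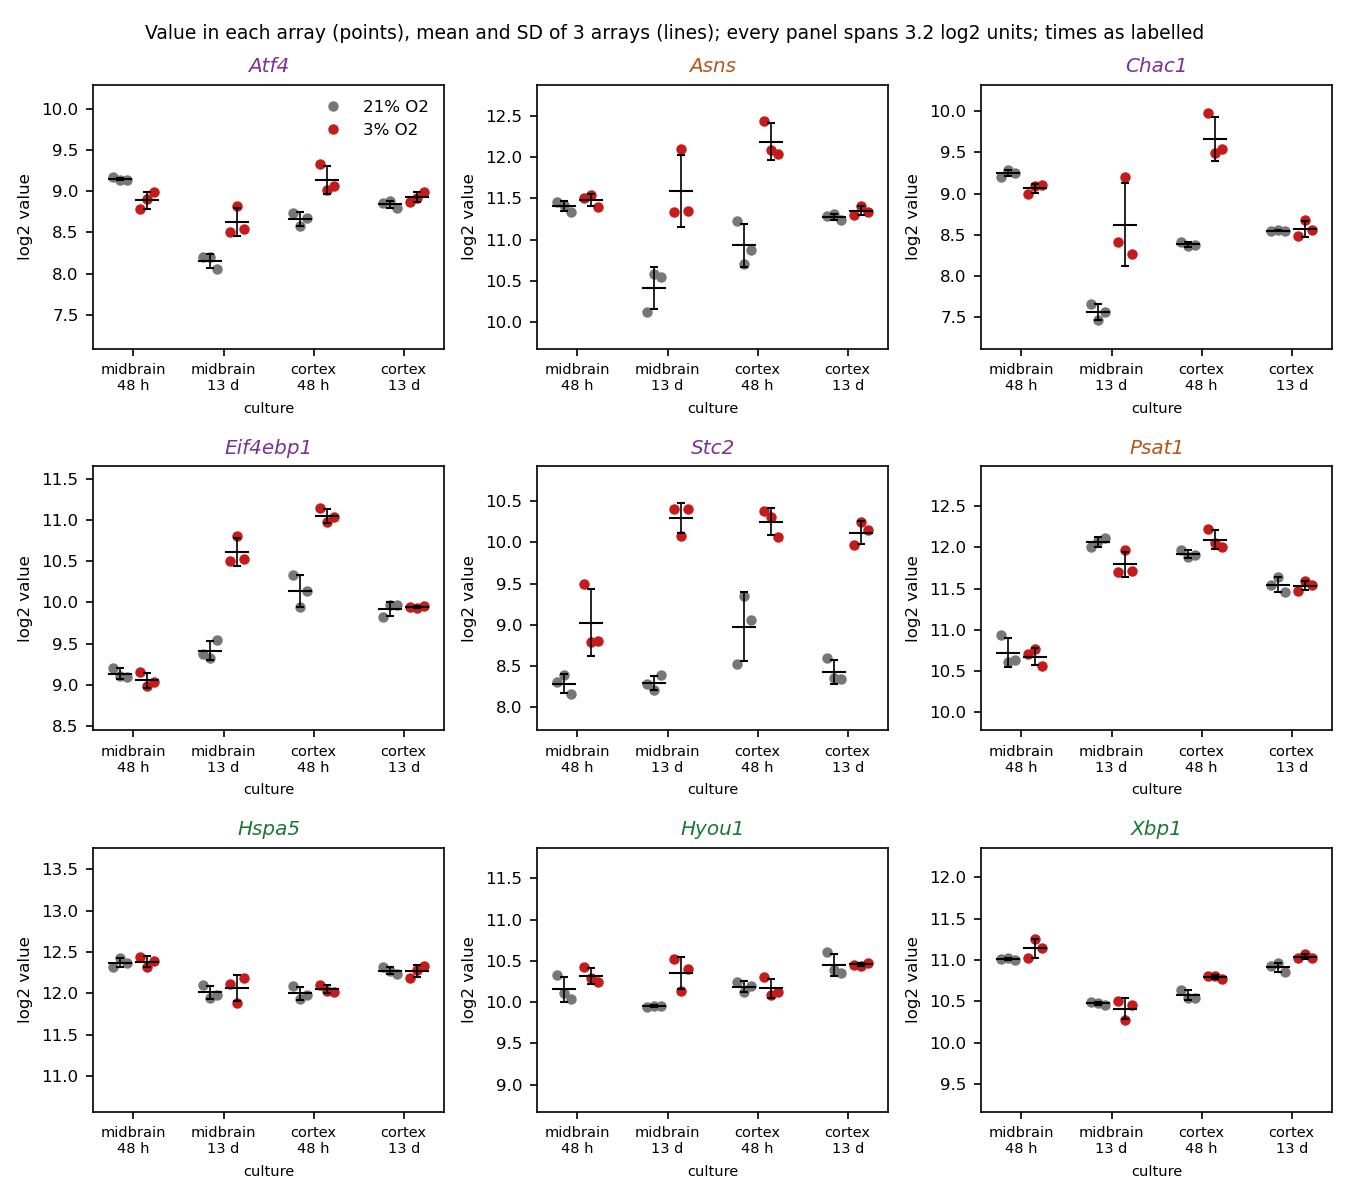
Log2 value of 9 members (panels of equal span) in each array (points, grey at 21% O2 and red at 3% O2), with the mean and SD of 3 arrays (lines), by culture. Asns, Chac1 and Eif4ebp1 separate by oxygen in midbrain 13 d and cortex labelled 48 h, Stc2 in all 4 cultures although midbrain 48 h did not pass (0.74 ± 0.18), and Hspa5 overlaps in all 4.

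Cebpb and Cebpg, bZIP factors that pair with ATF4, rose together. Cebpb went from 7.51, 7.53 and 7.57 to 8.04, 7.93 and 7.93 in midbrain 13 d and from 7.52, 7.49 and 7.41 to 7.97, 7.92 and 7.93 in cortex labelled 48 h, rises of 0.43 ± 0.06 and 0.47 ± 0.06 without overlap. The order in midbrain 48 h was the opposite, at 7.40, 7.39 and 7.36 against 7.28, 7.20 and 7.08, without passing (-0.20 ± 0.06, limma adjusted p = 0.0952), and in cortex labelled 13 d the arrays overlapped, at 7.37, 7.60 and 7.50 against 7.53, 7.55 and 7.47. Cebpg rose by 0.30 ± 0.07 and 0.29 ± 0.07 in midbrain 13 d and cortex labelled 48 h, the second call being lost without 3% O2 replicate 1 (0.21). Atf5, an ATF4 target and itself a bZIP factor, rose by 0.83 ± 0.16 and 1.00 ± 0.16, and Nupr1, a small stress-induced chromatin protein, by 0.93 ± 0.18 and 1.20 ± 0.18. Atf3, an early stress factor, rose in midbrain 13 d (0.37 ± 0.10) and was at 0.04 ± 0.10 in cortex labelled 48 h.

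Trib3 and Ddit3 stand for the feedback and the death-linked side of the response. Trib3, a pseudokinase that restrains ATF4 and CHOP, was at 7.31, 7.31 and 7.34 against 7.70, 8.06 and 7.59 in midbrain 13 d and at 7.36, 7.37 and 7.22 against 8.50, 7.85 and 7.90 in cortex labelled 48 h. It rose by 0.47 ± 0.13 and 0.77 ± 0.13, and the first call was lost without 3% O2 replicate 2, the highest array, at 0.33. It was at 7.48, 7.50 and 7.39 against 7.35, 7.45 and 7.13 in midbrain 48 h and at 7.26, 7.30 and 7.36 against 7.48, 7.43 and 7.38 in cortex labelled 13 d, with changes of -0.15 and 0.12.

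Ddit3, which encodes CHOP, rose in midbrain 13 d, from 7.87, 7.84 and 7.79 to 8.13, 8.37 and 8.17 (0.39 ± 0.09, limma adjusted p = 0.00299). Its arrays in cortex labelled 48 h overlapped, at 7.94, 8.00 and 8.12 against 8.34, 8.25 and 8.02 (0.19 ± 0.09, adjusted p = 0.218). It was at 8.65, 8.69 and 8.35 against 8.71, 8.57 and 8.63 in midbrain 48 h and at 8.10, 8.30 and 8.16 against 8.05, 8.15 and 8.18 in cortex labelled 13 d. Ppp1r15a, the GADD34 subunit that reverses eIF2 phosphorylation, lay between -0.09 and 0.06 in the 4 cultures and passed in none. Sesn2, a stress-induced regulator of mTORC1, also passed in none, at -0.28, 0.17, -0.04 and -0.31 in midbrain 48 h, midbrain 13 d, cortex labelled 48 h and cortex labelled 13 d.

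Stc2, Vldlr and Ddit4, which are known to answer hypoxia through HIF as well as ATF4, were the 3 regulators and effectors that rose in cortex labelled 13 d. Stc2, a secreted glycoprotein, went from 8.28, 8.21 and 8.39 to 10.40, 10.08 and 10.40 in midbrain 13 d, from 8.52, 9.35 and 9.07 to 10.38, 10.31 and 10.07 in cortex labelled 48 h and from 8.60, 8.35 and 8.34 to 9.96, 10.24 and 10.15 in cortex labelled 13 d. These were rises of 2.00 ± 0.18 (3.99-fold, limma adjusted p = 1.35e-07), 1.27 ± 0.18 and 1.69 ± 0.18. In midbrain 48 h it went from 8.31, 8.39 and 8.17 to 9.49, 8.79 and 8.80, without overlap and just short of the threshold (0.74 ± 0.18, limma adjusted p = 0.0529).

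Vldlr, a lipoprotein and reelin receptor, went from 10.36, 10.62 and 10.57 to 11.97, 11.68 and 11.90 in midbrain 13 d (1.33 ± 0.17) and from 9.73, 10.68 and 10.49 to 11.27, 11.19 and 10.90 in cortex labelled 48 h (0.82 ± 0.17). In cortex labelled 13 d it went from 9.81, 9.61 and 9.67 to 10.41, 10.46 and 10.48 (0.75 ± 0.17, limma adjusted p = 0.0418), a call lost on leaving out any 1 of the 6 arrays, at 0.71 to 0.81. Its midbrain 48 h values were 10.36, 10.47 and 10.49 against 10.96, 10.66 and 10.59 (0.30 ± 0.17).

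Ddit4, the mTORC1 inhibitor REDD1, had another pattern from the rest of the ATF4 arm. It rose in cortex labelled 13 d, from 9.74, 9.82 and 9.78 to 10.87, 11.13 and 11.03 (1.23 ± 0.18, limma adjusted p = 0.00055), and overlapped in cortex labelled 48 h, at 10.99, 11.75 and 11.61 against 11.71, 11.53 and 11.34 (0.07 ± 0.18). Its midbrain 13 d values were 11.63, 11.77 and 11.77 against 12.21, 12.14 and 12.20 and its midbrain 48 h values 9.18, 8.91 and 8.94 against 10.05, 9.21 and 9.44, higher in every 3% O2 array without passing (0.46 ± 0.18 and 0.56 ± 0.18). In midbrain 13 d Ddit4 did pass among the brighter probe sets and in a fit of the compared arrays alone. The HIF target list had median changes of 1.16, 1.01, 0.61 and 1.83 in midbrain 48 h, midbrain 13 d, cortex labelled 48 h and cortex labelled 13 d. Ddit4 took the same order over the cultures, whereas the changes of Stc2 and Vldlr were smallest in midbrain 48 h, where the HIF list was second highest. The part of HIF in their change was not tested.

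In the ER chaperone arm, the central chaperone BiP, encoded by Hspa5, did not pass in any culture. Its arrays were at 12.32, 12.43 and 12.37 against 12.44, 12.32 and 12.39 in midbrain 48 h and at 12.10, 11.95 and 11.98 against 12.12, 11.89 and 12.18 in midbrain 13 d. They were at 12.09, 11.93 and 11.98 against 12.11, 12.03 and 12.02 in cortex labelled 48 h and at 12.32, 12.26 and 12.23 against 12.19, 12.28 and 12.33 in cortex labelled 13 d. They overlapped in all 4, with changes of 0.01, 0.05, 0.05 and -0.01 ± 0.07, and the upper ends of the 95% intervals lay at 0.15, 0.19, 0.19 and 0.13. Calr, the lectin chaperone calreticulin, did not pass either, with changes of 0.13, 0.12, -0.07 and -0.01 ± 0.06.

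The Calr arrays were at 12.31, 12.15 and 12.25 against 12.38, 12.35 and 12.36 in midbrain 48 h and at 12.43, 12.31 and 12.45 against 12.61, 12.32 and 12.62 in midbrain 13 d. They were at 12.29, 12.38 and 12.37 against 12.27, 12.27 and 12.31 in cortex labelled 48 h and at 12.35, 12.28 and 12.26 against 12.28, 12.27 and 12.29 in cortex labelled 13 d. Only in midbrain 48 h were all its 3% O2 arrays the higher ones.

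In midbrain 13 d, 4 members of the arm rose. Hyou1, a large chaperone that acts on BiP and is named for induction by low oxygen, went from 9.94, 9.95 and 9.96 to 10.52, 10.14 and 10.40, a rise of 0.40 ± 0.09 (1.32-fold, limma adjusted p = 0.00224). In the other cultures its arrays overlapped, at 10.33, 10.11 and 10.04 against 10.42, 10.29 and 10.24 in midbrain 48 h, 10.25, 10.12 and 10.20 against 10.30, 10.09 and 10.12 in cortex labelled 48 h, and 10.60, 10.39 and 10.36 against 10.46, 10.43 and 10.48 in cortex labelled 13 d. Edem1, which directs misfolded glycoproteins to degradation, went from 9.16, 9.20 and 9.26 to 9.67, 9.39 and 9.60 in midbrain 13 d (0.35 ± 0.09). It passed in no other culture, with arrays at 9.30, 9.30 and 9.21 against 9.26, 9.33 and 9.35 in midbrain 48 h, 9.64, 9.39 and 9.51 against 9.91, 9.57 and 9.56 in cortex labelled 48 h, and 9.52, 9.40 and 9.35 against 9.40, 9.46 and 9.47 in cortex labelled 13 d.

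Hsp90b1, the chaperone GRP94, rose by 0.31 ± 0.08 in midbrain 13 d and Pdia6, a disulfide isomerase, by 0.30 ± 0.10. Pdia6 no longer passed on leaving out 3% O2 replicate 1 or 3 (0.22 in both), or, at 21% O2, replicate 2 or 3 (0.27 and 0.30). Sdf2l1, a partner of BiP complexes, fell there by 0.37 (SE 0.08), from 9.86, 9.78 and 9.88 to 9.54, 9.29 and 9.59. It was also lower in cortex labelled 48 h in every 3% O2 array, at 9.81, 9.77 and 9.81 against 10.04, 10.00 and 10.00, without passing (-0.22 ± 0.08, limma adjusted p = 0.105) except with quantile normalization. It was at 8.75, 8.37 and 8.45 against 8.45, 8.54 and 8.67 in midbrain 48 h and at 9.73, 9.83 and 9.65 against 9.63, 9.65 and 9.70 in cortex labelled 13 d.

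The arm had 2 risers in cortex labelled 48 h. Herpud1, a component of ER-associated degradation that is induced by both arms of the stress response, went from 9.51, 9.65 and 9.61 to 10.15, 9.86 and 9.76 (0.34 ± 0.09, limma adjusted p = 0.0129). The call was lost without 3% O2 replicate 1, its highest array, at 0.22. Herpud1 was at 10.88, 10.84 and 10.70 against 10.93, 10.93 and 11.01 in midbrain 48 h, 9.59, 9.61 and 9.59 against 9.60, 9.91 and 9.58 in midbrain 13 d, and 9.94, 9.92 and 9.95 against 9.98, 10.04 and 10.08 in cortex labelled 13 d.

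Xbp1, whose spliced mRNA encodes the active factor of the IRE1 branch, went from 10.64, 10.54 and 10.54 to 10.81, 10.81 and 10.77 in cortex labelled 48 h (0.22 ± 0.06, limma adjusted p = 0.0139), a call lost without 21% O2 replicate 2 or 3 (0.20 and 0.21). It was at 11.01, 11.03 and 11.00 against 11.03, 11.25 and 11.14 in midbrain 48 h, 10.49, 10.48 and 10.46 against 10.51, 10.27 and 10.45 in midbrain 13 d, and 10.93, 10.96 and 10.86 against 11.03, 11.07 and 11.02 in cortex labelled 13 d. A probe set for the whole gene does not separate the spliced form.

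In midbrain 48 h all 14 members of the chaperone arm had a positive change, as had 12 in midbrain 13 d, 9 in cortex labelled 48 h and 5 in cortex labelled 13 d. Among all probe sets 40.5%, 45.1%, 50.8% and 43.6% were positive in this order, and the difference between cultures in these signs was not tested. The changes in midbrain 48 h lay between 0.01 and 0.25, and limma called 0 of them (4 higher and 0 lower at an unadjusted p under 0.05). Manf, a secreted ER protein that protects neurons, had the smallest p of the arm, at 9.28, 9.10 and 8.96 against 9.37, 9.31 and 9.43 (0.25 ± 0.08, limma adjusted p = 0.11). It passed without 21% O2 replicate 1. Pdia4, a disulfide isomerase, was at 11.15, 10.91 and 11.09 against 11.27, 11.23 and 11.25 (0.20 ± 0.08). In 12 of these 14 genes 21% O2 replicate 1 was the highest array of its group, and how often it was so among all probe sets was not counted. In cortex labelled 13 d, where 0 of 14 were called (1 higher and 1 lower at an unadjusted p under 0.05), the smallest p belonged to Creld2, a disulfide isomerase, at 10.18, 10.10 and 10.07 against 9.85, 9.94 and 9.88 (-0.22 ± 0.09, limma adjusted p = 0.468).

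The remaining arrays of these members add no call. Manf was at 9.46, 9.46 and 9.48 against 9.74, 9.40 and 9.68 in midbrain 13 d, Pdia4 at 11.67, 11.57 and 11.71 against 11.86, 11.54 and 11.89 and Creld2 at 9.60, 9.46 and 9.67 against 9.81, 9.46 and 9.81. Dnajc3, the co-chaperone P58IPK that restrains eIF2 kinases, was at 9.40, 9.40 and 9.42 against 9.67, 9.39 and 9.61 there, and at 9.32, 9.17 and 9.21 against 9.06, 8.99 and 9.18 in cortex labelled 13 d (-0.15 ± 0.08). In each of these 4 genes 3% O2 replicate 2 was the lowest of its group in midbrain 13 d. Dnajb9, an ER co-chaperone of the IRE1 branch, passed in no culture, with changes of 0.22, 0.05, 0.24 and 0.11 ± 0.11.

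That replicate ranked high in most of the ATF4 arm and low in the chaperone arm. Among the midbrain 13 d arrays at 3% O2, replicate 2 was the highest in 9 of 9 enzymes and in 9 of 15 regulators and effectors, and the lowest in 13 of 14 members of the chaperone arm. Over all probe sets it also stood apart, at r = 0.996 and 0.995 with replicates 1 and 3, against 0.999 between those. How often it was the highest or lowest among all probe sets was not counted. These ranks are therefore not read as particular to the arms. The exception in the chaperone arm was Herpud1, which stood 0.32 above the 21% O2 mean in replicate 2 and at 0.00 and -0.01 in replicates 1 and 3. Pck2 stood 0.84 above the 21% O2 mean in replicate 2 and 0.05 and 0.02 above it in the others, and Atf5 1.44 above it against 0.51 and 0.53. Stc2, Vldlr, Ddit4, Atf3 and Cebpb, on the other hand, were lowest in replicate 2. The enzyme list mean was 10.50, 10.95 and 10.50 in replicates 1, 2 and 3 and the chaperone list mean 10.64, 10.38 and 10.63. Cell type lists differed in the same array, with an oligodendrocyte lineage mean of 9.71, 9.34 and 9.73, a progenitor mean of 11.40, 11.21 and 11.41 and an astrocyte mean of 9.64, 9.33 and 9.64. Their part in the values of this array was not tested.

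Without that array 9 members of the chaperone arm rose in midbrain 13 d instead of 4, the 5 more being Dnajc3, Calr, Pdia4, Creld2 and Manf, and 17 members of the ATF4 arm were called instead of 18. Both number 1 arrays of cortex labelled 48 h stood apart from the others of their group. At 21% O2, replicate 1 correlated with replicates 2 and 3 at r = 0.986 and 0.992, and its oligodendrocyte lineage mean was 9.64 against 10.54 and 10.50. Leaving it out changed no member's call there. At 3% O2, replicate 1 correlated with the other two at r = 0.993, with an oligodendrocyte lineage mean of 9.48 against 10.15 and 10.10. It was the highest in 22 of 24 members of the ATF4 arm and also in 11 of 14 of the chaperone arm, so that there it was high in both arms. How often this array was the highest among all probe sets was not counted. Without it, 14 members of the ATF4 arm rose instead of 15 and 1 of the chaperone arm instead of 2.

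**Figure D4:**
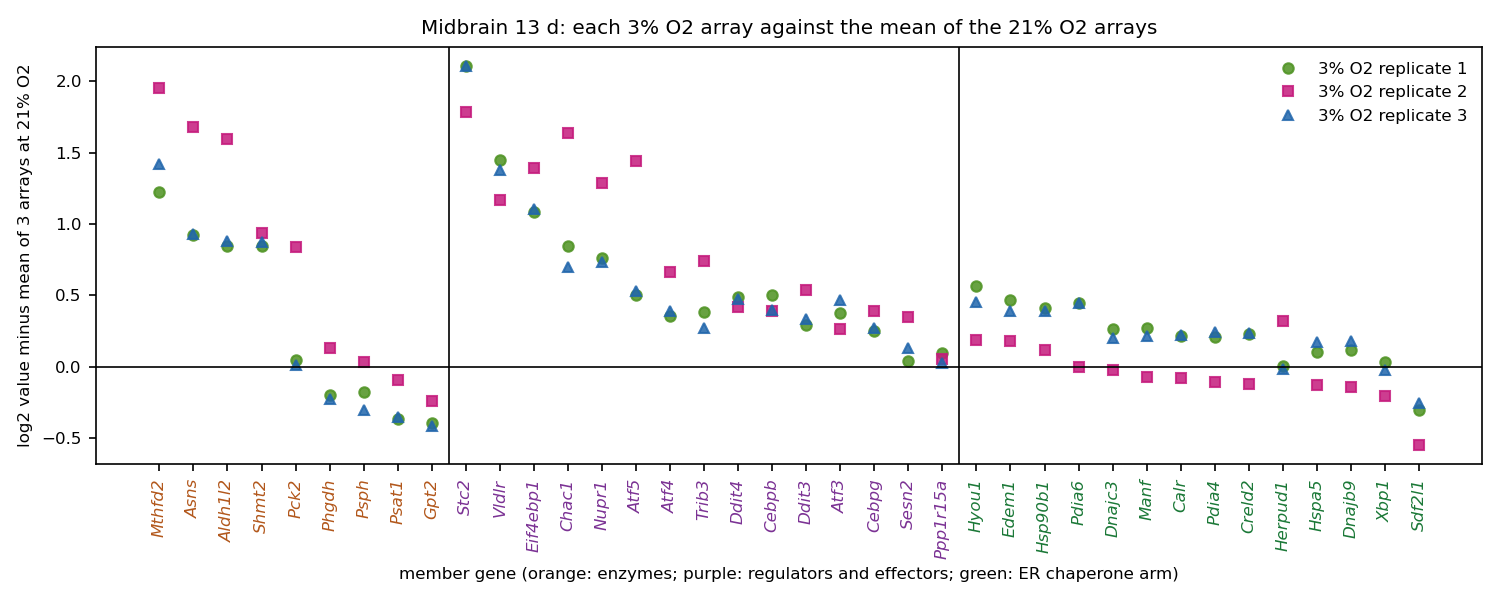
Log2 value of each 3% O2 array of midbrain 13 d minus the mean of the 3 arrays at 21% O2 (vertical axis) for the 38 members (horizontal axis, grouped by list), with a symbol per replicate. Replicate 2 (squares) is the highest point for all 9 enzymes and the lowest for 13 of the 14 members of the ER chaperone arm. Such ranks were not counted over all probe sets.

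Related genes outside the module were counted in 6 lists, beside the same shares of all probe sets (for midbrain 13 d 11.2% higher and 12.7% lower, for cortex labelled 48 h 6.25% and 6.08%). Of 17 measured aminoacyl-tRNA synthetases, which charge tRNAs and are known ATF4 targets in the cytosol, 12 rose and 0 fell in midbrain 13 d, led by Mars1 (0.87 ± 0.09) and Eprs (0.66 ± 0.07). In cortex labelled 48 h 12 rose and 0 fell, led by Sars (0.60 ± 0.08) and Cars (0.72 ± 0.10). Of 10 amino acid transporters, 7 and 6 rose and 0 fell in these cultures. Slc7a11, which imports cystine, rose by 2.27 ± 0.17 in cortex labelled 48 h, and Slc3a2, the heavy chain it pairs with, by 0.58 ± 0.06.

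Of 11 mitochondrial chaperones and proteases 4 rose and 0 fell in each of these 2 cultures. Hspa9, the mitochondrial Hsp70, rose by 0.74 ± 0.09 in the midbrain culture and by 0.48 ± 0.09 in that of cortex, and Afg3l2, an inner membrane protease, by 0.45 ± 0.07 and 0.39 ± 0.07. Of 8 other folate enzymes only Mthfd1l rose, by 1.34 ± 0.15 and 1.13 ± 0.15. It completes the mitochondrial route of Shmt2 and Mthfd2. Mthfd2l, a relative of Mthfd2, fell by 0.36 (SE 0.09) in midbrain 13 d.

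ER folding and degradation genes outside the module were mixed in midbrain 13 d. Of 19 measured, 4 rose and 3 fell there (21.1% and 15.8%) and 1 rose and 0 fell in each other culture (5.26%). In midbrain 48 h 18 of the 19 changes were positive (94.7%, against 40.5% of all probe sets). Of them 11 were higher and 0 lower at an unadjusted p under 0.05. The list mean went from 9.86 ± 0.08 to 10.04 ± 0.03 in that culture, without overlap. In midbrain 13 d, cortex labelled 48 h and cortex labelled 13 d, 13, 10 and 10 changes were positive. Ero1a, the ER oxidase that is also a HIF target, rose by 1.61 ± 0.16, 1.30 ± 0.16 and 1.14 ± 0.16 in midbrain 13 d, cortex labelled 48 h and cortex labelled 13 d. Os9, a lectin of ER-associated degradation, fell by 0.37 (SE 0.07) in midbrain 13 d, and Syvn1, the ubiquitin ligase HRD1, rose by 0.27 ± 0.06 in midbrain 48 h and fell by 0.17 (SE 0.06) in midbrain 13 d.

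Of 13 stress sensors and eIF2 or eIF2B subunits, 2 rose and 3 fell in midbrain 13 d (15.4% and 23.1%) and 1 rose and 0 fell in cortex labelled 48 h (7.69%). The shares higher were near those of all probe sets. Eif2ak3, which encodes PERK, rose by 0.38 ± 0.08 in midbrain 13 d, while Eif2ak1, the heme-regulated kinase, fell by 0.50 (SE 0.06). Ppp1r15b, the constitutive partner of the eIF2 phosphatase, rose by 0.25 ± 0.06 in cortex labelled 48 h. Apart from Syvn1 and Ero1a, limma called 0 of the 78 genes of these 6 lists in midbrain 48 h or in cortex labelled 13 d. At an unadjusted p under 0.05, 22 were higher and 0 lower in midbrain 48 h, and 3 higher and 6 lower in cortex labelled 13 d.

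**Figure D5:**
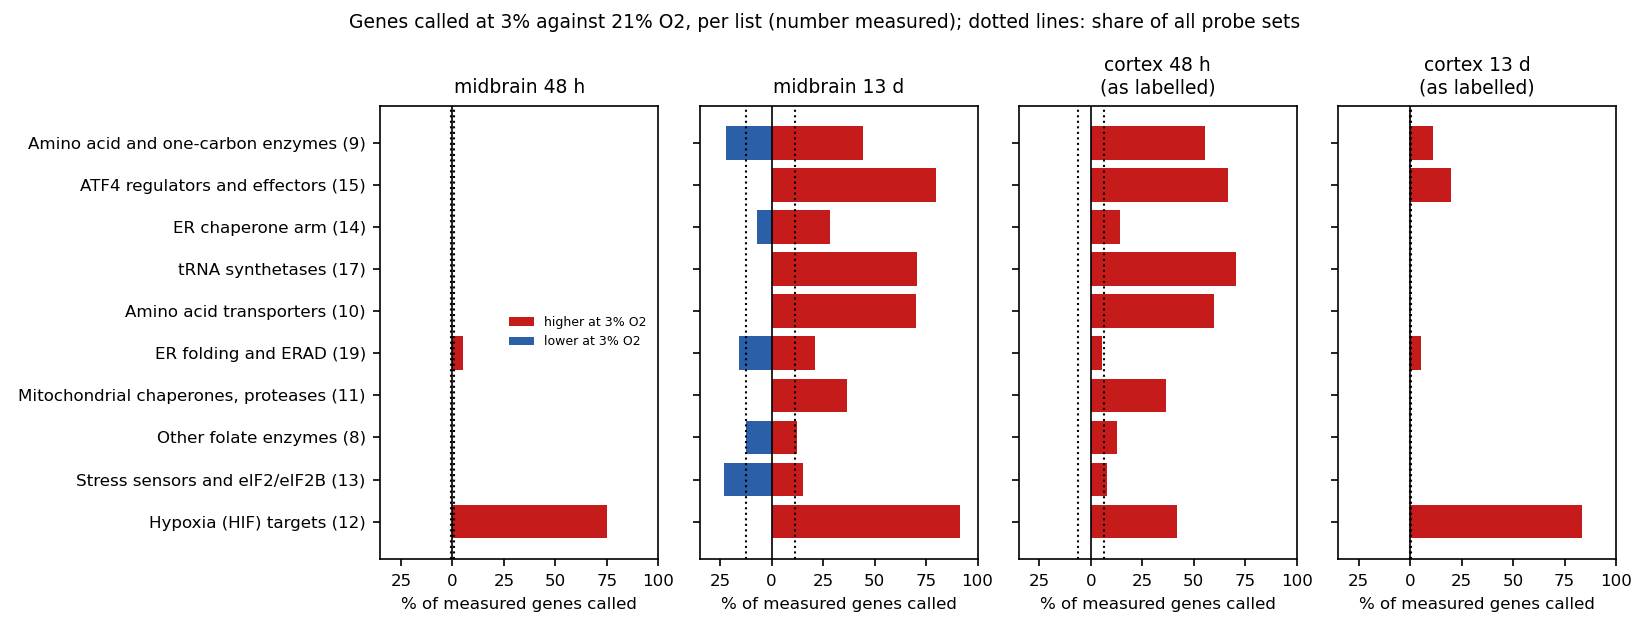
Share of measured genes called at 3% against 21% O2 (horizontal axis in percent, higher to the right in red and lower to the left in blue) for the 3 member lists, 6 related lists and the HIF targets, by culture. Dotted lines give the share of all probe sets, such as 11.2% higher in midbrain 13 d. In midbrain 13 d and cortex labelled 48 h, tRNA synthetases and amino acid transporters reach far beyond them. The ER lists reach less far, in midbrain 13 d 28.6% for the chaperone arm and 21.1% for ER folding and degradation.

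Of 77 cell type markers, 12 rose and 9 fell in midbrain 13 d (15.6% and 11.7%, near the 11.2% and 12.7% of all probe sets), and 4 rose and 13 fell in cortex labelled 48 h (5.19% and 16.9%, against 6.25% and 6.08%). In midbrain 13 d, 5 of 10 pericyte, fibroblast and meninges markers rose and 0 fell, and their list mean went from 7.26 ± 0.04 to 8.05 ± 0.21. Of 9 endothelial markers 2 rose (list mean 6.59 ± 0.04 to 6.86 ± 0.07), of 15 neuron markers 2 rose and 4 fell (8.50 ± 0.07 to 8.42 ± 0.09), of 11 oligodendrocyte lineage markers 1 rose and 3 fell (10.15 ± 0.02 to 9.59 ± 0.22), of 10 progenitor markers 1 rose and 2 fell (11.56 ± 0.01 to 11.34 ± 0.11) and of 9 cell cycle genes 4 rose (10.95 ± 0.04 to 11.28 ± 0.07). In cortex labelled 48 h, 7 of 15 neuron markers fell and 1 rose (9.36 ± 0.11 to 9.05 ± 0.21), and 3 of 10 progenitor markers fell (11.56 ± 0.15 to 11.22 ± 0.10). Of the oligodendrocyte lineage markers 1 rose and 2 fell there (10.23 ± 0.51 to 9.91 ± 0.37), and 0 of the endothelial, 0 of the pericyte, fibroblast and meninges markers and 0 of the cell cycle genes were called. Of 8 astrocyte markers 1 rose in midbrain 13 d (9.70 ± 0.10 to 9.54 ± 0.18) and 1 rose and 1 fell in cortex labelled 48 h (9.29 ± 0.61 to 9.01 ± 0.08), and of 14 microglia markers 0 and 1 rose (6.50 ± 0.05 to 6.53 ± 0.07 and 6.50 ± 0.04 to 6.55 ± 0.05). Their part in the ATF4 arm was not tested, and in bulk RNA fewer cells of a type and less RNA per cell cannot be told apart. In midbrain 48 h and cortex labelled 13 d limma called 0 of the 77 cell type markers (2 higher and 6 lower, and 3 higher and 0 lower, at an unadjusted p under 0.05).

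Whether the response itself differed between cultures was tested as a difference of oxygen responses. In midbrain, 16 members of the ATF4 arm responded more positively at 13 d than at 48 h, 4 enzymes and 12 regulators and effectors, and 1 member of the chaperone arm more negatively, against 6.86% and 8.24% of all probe sets. Eif4ebp1 differed by 1.27 ± 0.13 (limma adjusted p = 2.27e-06), Mthfd2 by 1.46 ± 0.29, Shmt2 by 0.75 ± 0.12 and Cebpb by 0.63 ± 0.08. Sdf2l1 differed by -0.40 ± 0.12, a call lost on leaving out any of 6 single arrays and in a fit of the 12 midbrain arrays alone. Both times were hybridised in separate runs, and what a run adds cancels here if it is the same at 3% and 21% O2.

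In cortex the difference, labelled 13 d minus 48 h, was negative for 4 enzymes and 6 regulators and effectors and positive for 1, Ddit4, with 0 chaperone members called (0 in either direction at an unadjusted p under 0.05), against 1.91% of all probe sets more positive and 2.23% more negative. Pck2 differed by -1.49 ± 0.27, Chac1 by -1.26 ± 0.22, Aldh1l2 by -1.25 ± 0.25 and Eif4ebp1 by -0.89 ± 0.13. Between the regions at labelled 48 h, 5 enzymes and 7 regulators and effectors responded more negatively in midbrain and 0 more positively, with 0 of the chaperone arm called (3 higher and 0 lower at an unadjusted p under 0.05). The shares of all probe sets were 2.99% more negative and 2.89% more positive. Aldh1l2 differed by -1.40 ± 0.25, Eif4ebp1 by -0.99 ± 0.13, Cebpb by -0.67 ± 0.08 and Shmt2 by -0.61 ± 0.12. These 3 differences share arrays, so their overlap is not read.

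The cultures in which the ATF4 arm rose, midbrain 13 d and cortex labelled 48 h, differed from each other in 4 members, all more negative in midbrain, against 3.42% of all probe sets more negative and 3.16% more positive. They were Pck2 (-1.11 ± 0.27), Gpt2 (-0.43 ± 0.10), Psat1 (-0.44 ± 0.12) and Xbp1 (-0.29 ± 0.08). Calls over all probe sets moved with single arrays, from 740 more positive and 800 more negative to 1076 and 863 without midbrain 3% O2 replicate 2. Without midbrain 3% O2 replicate 3 they were 413 and 525. The count of members depended on single arrays too. It was 11 without midbrain 3% O2 replicate 2, the array described above, 1 and 0 without midbrain 3% O2 replicates 1 and 3, 2 without midbrain 21% O2 replicate 2 or 3 or cortex 3% O2 replicate 2 or cortex 21% O2 replicate 2 or 3, and 6 without cortex 21% O2 replicate 1. In the fit without midbrain 3% O2 replicate 2, 4 members of the chaperone arm responded more positively in midbrain and 0 more negatively. They were Hsp90b1, Calr, Pdia6 and Hyou1, while the call of Xbp1 was lost. Hyou1 was also called more positive with quantile normalization, with median centring and among the brighter probe sets. With all arrays, 0 of the regulators and effectors were called (4 higher and 0 lower at an unadjusted p under 0.05).

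Levels at 21% O2 also differed between cultures, and between the regions at labelled 48 h both arms were split within themselves. In midbrain 48 h against cortex labelled 48 h, 2 enzymes were higher and 6 lower, 4 regulators and effectors were higher and 4 lower, and 4 chaperone members were higher and 8 lower, against 24.3% and 30.5% of all probe sets. The serine pathway was lower as a whole in midbrain 48 h, with Phgdh at -1.44 ± 0.11, Psph at -1.36 ± 0.11 and Psat1 at -1.19 ± 0.09, and so were Gpt2 (-1.68 ± 0.07) and Ddit4 (-2.44 ± 0.18). Chac1 (0.86 ± 0.16), Atf3 (0.69 ± 0.10), Ddit3 (0.54 ± 0.09) and Atf4 (0.49 ± 0.08) were the 4 higher regulators. In the chaperone arm Herpud1 was 1.21 ± 0.09 higher, Xbp1 0.44 ± 0.06 and Hspa5 0.37 ± 0.07, while Sdf2l1 was lower (-1.49 ± 0.08).

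In cortex at 21% O2, labelled 13 d against 48 h, 1 enzyme was higher and 6 lower, 0 regulators and effectors were higher and 4 lower, and 4 chaperone members were higher and 2 lower, against 16.8% and 20.4% of all probe sets. Mthfd2 was the enzyme that was higher (0.91 ± 0.20), while Gpt2 (-1.18 ± 0.07) and Psph (-0.62 ± 0.11) were lower, and of the regulators Ddit4 (-1.67 ± 0.18) and Sesn2 (-1.13 ± 0.09). Herpud1 (0.35 ± 0.09), Xbp1 (0.34 ± 0.06) and Hspa5 (0.27 ± 0.07) were again on the higher side in the culture with more neuron RNA, as in midbrain 48 h, both measured against the same cortex arrays. The neuron list mean differed in parallel, at 11.85 and 11.27 against 9.36, and its part in these levels was not tested. Differences in level were common among all probe sets, so these counts are not read as particular to the module.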

How the data were processed

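Per the labels, labelled cDNA from 24 samples was hybridised to whole-transcript arrays. The deposited table holds log2 values, which the labels call normalized. The method and the genome build are not given in the sources used here, and a shift common to all genes of an array would not show. Of 28856 probe sets, 23410 had a gene symbol and were tested, 21789 with 1 symbol, 1621 with several, and 5446 are unnamed here. Symbols of 21698 were found in RefSeq by Entrez number and 0 changed.

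Limma 3.58.1 in R 4.3.3 fitted 8 group means to 24 arrays (16 residual degrees of freedom) with eBayes. Tests were two-sided, adjusted by Benjamini-Hochberg within each of 10 comparisons, at a threshold of 0.05, and the fit was tested on simulated data. Members and lists were chosen with earlier results of these data known. All 38 members could be named; array values are given for a panel of 12 and, in each list, for the 3 genes of smallest p in an oxygen comparison, and the 2 with the smallest p of each related list could be named. Only Dnajc3 and Pdia4 had 2 probe sets.

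Same-numbered arrays at both oxygen levels deviated together in midbrain (r = 0.12, 0.22 and 0.24 at 48 h, 0.12, 0.42 and 0.31 at 13 d), which was taken as pairing. Unlike-numbered midbrain arrays gave r from -0.182 to -0.029 at 48 h and from -0.419 to 0.167 at 13 d. At 13 d the highest of these was above the same-numbered 0.123 of replicate 1. The pairing is read from the data alone, as no label explains the numbers. Cortex did not show it throughout, with same-numbered r of 0.285, 0.417 and -0.044 labelled 48 h and -0.014, 0.229 and -0.367 labelled 13 d. The model above has no replicate block. Every replicate pair differed by an SD of at least 0.0904 and counted as separate. Alternatives were quantile normalization, median centring, brighter or all probe sets, a variance trend, the compared arrays alone, the next probe set, the block and leaving out each array. Leaving out both number 1 arrays of cortex labelled 48 h was added after the data were seen. For promoter motifs the 8-base core TGATGNAA was also counted. Cell type markers were lists for neurons, progenitors, oligodendrocyte lineage, astrocytes, microglia, endothelium and pericytes or fibroblasts.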

Additional observations from a re-analysis of the deposited data

Results flagged for a closer look

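Differences between oxygen responses that passed limma's test are listed here with their values, since the effect of oxygen then differed between 2 cultures. In midbrain, 13 d minus 48 h, 17 members differed, among them Shmt2 (0.75), Mthfd2 (1.46), Eif4ebp1 (1.27), Cebpb (0.63) and Sdf2l1 (-0.40). In cortex, labelled 13 d minus 48 h, 11 differed, among them Pck2 (-1.49), Aldh1l2 (-1.25), Eif4ebp1 (-0.89) and Chac1 (-1.26). Between midbrain and cortex at labelled 48 h, 12 differed, among them Aldh1l2 (-1.40), Shmt2 (-0.61), Cebpb (-0.67) and Eif4ebp1 (-0.99). Between midbrain 13 d and cortex labelled 48 h, 4 differed: Pck2 (-1.11), Gpt2 (-0.43), Psat1 (-0.44) and Xbp1 (-0.29). Groups of 3 arrays are too small for the test of single outlying arrays used elsewhere.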

How the results depend on the processing

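In midbrain 48 h the count of 0 members became 1 (Stc2) with quantile normalization, with median centring and with the brighter probe sets alone, and 0 to 1 on leaving out single arrays. In cortex labelled 48 h the count of 17 became 7 in a fit of the compared arrays alone, which has fewer arrays, and 15 to 18 on leaving out single arrays. With the compared arrays alone, 161 of all probe sets were higher and 150 lower there, against 1462 and 1424 in the main fit. The count of 4 between midbrain 13 d and cortex labelled 48 h became 1 in a fit of the compared arrays alone. It became 8 without both number 1 arrays of cortex labelled 48 h (chosen after seeing the data) and 0 to 11 on leaving out single arrays. Calls over all probe sets moved too, from 740 more positive and 800 more negative to 351 and 460 with the compared arrays alone. They were 1610 and 1296 without both number 1 arrays, 413 and 525 in the fit with 0 members and 1076 and 863 in that with 11. The cause was not tested. Leaving out single arrays gave 21 to 27 in midbrain 13 d, 3 to 3 in cortex labelled 13 d, 14 to 18, 11 to 13 and 11 to 14 for the differences between midbrain times, cortex times and regions at labelled 48 h, and 13 to 18 and 25 to 27 for the levels between cortex times and between regions.

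With the replicate block the counts were 0, 23, 17 and 3 in midbrain 48 h, midbrain 13 d, cortex labelled 48 h and cortex labelled 13 d (Vldlr was lost in the last), and 17, 13, 13 and 5 for the differences of responses; in cortex the block only tests shared numbers. Levels between cultures could not be fitted with it. Of 133 called member values, 39 were not called under at least 1 alternative and 0 reversed. Normalized values do not show how far a probe set stood above background.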
